A study of Homo sapiens with 2 samples.

Results

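The genes described here lie on one stretch of the long arm of chromosome 21. They are NRIP1, USP25, CXADR, BTG3, C21orf91, CHODL, PRSS7 and NCAM2, in the order of their probes along NCBI36. They make up 8 of the 30238 gene names on the arrays and 14 of the 41000 probes, and every probe with one of these names was taken. The genes were chosen by measured values, since the ratios of PRSS7 and CHODL against the control were known when the stretch was picked. Ratios against the control are therefore given as a description, with no test.

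The cells are sublines of A2780, an established line of human ovarian carcinoma. A2780CBN was selected for survival in rising doses of carboplatin up to 22.2 µM, and A2780CBNDXL in rising doses of carboplatin together with docetaxel, with both doses raised by the same factor. For A2780CBNDXL the labels give 8.02 µM as the terminal dose of the combination. In the study's text this concentration is the carboplatin IC50 of the line, and the terminal dose is lower, with docetaxel in the nanomolar range. Each line was compared with co-cultured A2780CC cells, which were kept in culture beside it without drug. The selected lines are described in the study as populations and not as clones, and A2780DXL was not analysed here. For either line the RNA of 3 separate isolations was mixed into a single sample. This sample was hybridized beside its control to 4 two-colour arrays, 1 forward and 1 reverse labelled array on each slide. The SD over arrays is thus that of repeated labelling and hybridization, and no p-value across cultures could be had.

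PRSS7, now named TMPRSS15, encodes enteropeptidase, a membrane-bound serine protease of the duodenal brush border that cuts trypsinogen into trypsin and so starts the activation of the pancreatic zymogens. CHODL encodes chondrolectin, a membrane protein of the C-type lectin family that is known from muscle and motor neurons. NCAM2 and CXADR are cell adhesion molecules of the immunoglobulin superfamily, and CXADR also serves as the receptor of coxsackieviruses and many adenoviruses. NRIP1 is a corepressor of nuclear receptors, USP25 a deubiquitinating enzyme, and BTG3 a member of the antiproliferative BTG/TOB family.

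PRSS7 and CHODL are neighbours whose probes point towards each other. On NCBI36 the CHODL probe lies at chr21:18561407-18561466 on the plus strand. The PRSS7 probe starts 2823 bases further, at chr21:18564290-18569421 on the minus strand, and its 60 bases are spread over 5132 bases of genome, so that it bridges spliced sequence. It is printed here because the largest ratio of A2780CBN rests on it alone, with capitals for the 18 bases that encode the conserved stretch around the catalytic serine of trypsin-like proteases.

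PRSS7 probe: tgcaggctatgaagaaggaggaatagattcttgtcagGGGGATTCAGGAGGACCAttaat

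The sequences upstream of both genes are shown as well, since both were higher in A2780CBNDXL. They are the 250 bases before the start of the gene in RefSeq on GRCh38.p14, with each CG dinucleotide in capitals. The first is TMPRSS15 at chr21:18403786-18404035 on the minus strand, and the others are the 2 listed starts of CHODL, at chr21:18244583-18244832 and chr21:18245625-18245874 on the plus strand.

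PRSS7 upstream: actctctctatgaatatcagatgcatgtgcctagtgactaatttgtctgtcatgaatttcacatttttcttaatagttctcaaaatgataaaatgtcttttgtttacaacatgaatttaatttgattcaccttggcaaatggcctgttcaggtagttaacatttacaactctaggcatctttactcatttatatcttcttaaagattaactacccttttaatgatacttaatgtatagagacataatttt
CHODL upstream, start 1: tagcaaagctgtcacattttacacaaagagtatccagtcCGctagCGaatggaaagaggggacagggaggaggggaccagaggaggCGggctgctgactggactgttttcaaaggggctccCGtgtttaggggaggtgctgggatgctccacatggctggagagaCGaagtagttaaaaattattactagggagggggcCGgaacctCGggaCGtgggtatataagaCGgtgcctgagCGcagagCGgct
CHODL upstream, start 2: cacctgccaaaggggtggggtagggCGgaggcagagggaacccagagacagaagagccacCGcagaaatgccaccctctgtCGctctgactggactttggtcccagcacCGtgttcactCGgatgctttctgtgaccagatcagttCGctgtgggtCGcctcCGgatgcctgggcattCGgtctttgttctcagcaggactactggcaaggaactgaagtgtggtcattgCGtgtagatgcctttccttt

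The PRSS7 window held 0 CG dinucleotides and 29.2% G and C, and 6.05% of the 35114 promoter windows of the table held no CG. The windows of CHODL held 11 and 10, close to the median of 11 over the table. Windows of BTG3, C21orf91 and USP25 held 39, 31 and 30, the 3 windows of NRIP1 held 11, 26 and 42, and that of NCAM2 held 14. CXADR had no window in the table. Neither promoter activity nor methylation was measured on the arrays.

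PRSS7 was much higher in both resistant lines than in their controls. In A2780CBN the processed signal of PRSS7 was 2228, 2047, 1661 and 1775 in the line on arrays 1 to 4, and 24.8, 26.0, 7.39 and 3.87 in the control. In A2780CBNDXL it was 5937, 7760, 5838 and 6651 in the line, and 35.0, 118, 41.2 and 45.7 in the control. All 8 line signals lay above all 8 control signals. The mean log2 ratio of line over control was 7.36 ± 1.19 (SD, n = 4 arrays) in A2780CBN and 6.94 ± 0.62 in A2780CBNDXL, or 164-fold and 123-fold.

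The size of these folds is less certain than their direction. The PRSS7 control signal exceeded the software's limit for a signal well above background on 2 arrays in A2780CBN and on 3 arrays in A2780CBNDXL. On the arrays where both channels were so, the log2 ratio was 6.30 and 6.49 in A2780CBN and 6.04 to 7.18 in A2780CBNDXL. With normexp background correction, which adds an offset of 50 to both channels, the mean ratio was 2.90 in A2780CBN (7.45-fold) and 4.50 in A2780CBNDXL (22.6-fold). Among 17947 measured genes PRSS7 had the highest ratio in A2780CBN, rank 1, and with normexp it held rank 26. In A2780CBNDXL it held rank 9 of 17108 and rank 10 with normexp.

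CHODL was higher in A2780CBNDXL alone. Its line signal there was 49426, 60216, 45802 and 44881 on arrays 1 to 4, with 186, 405, 218 and 270 in the control. In A2780CBN the line signal was 75.1, 88.0, 78.2 and 103, and the control signal 179, 138, 163 and 137. All 16 channels were well above background, and the channels of line and control did not overlap in either line. The mean log2 ratio was 7.59 ± 0.37 in A2780CBNDXL, or 193-fold, and -0.84 ± 0.38 in A2780CBN. It stayed between 6.67 and 7.88 in A2780CBNDXL over the alternatives. The ratio in A2780CBNDXL was the third highest of 17108 genes, and the highest, rank 1, with normexp.

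**Figure D1:**
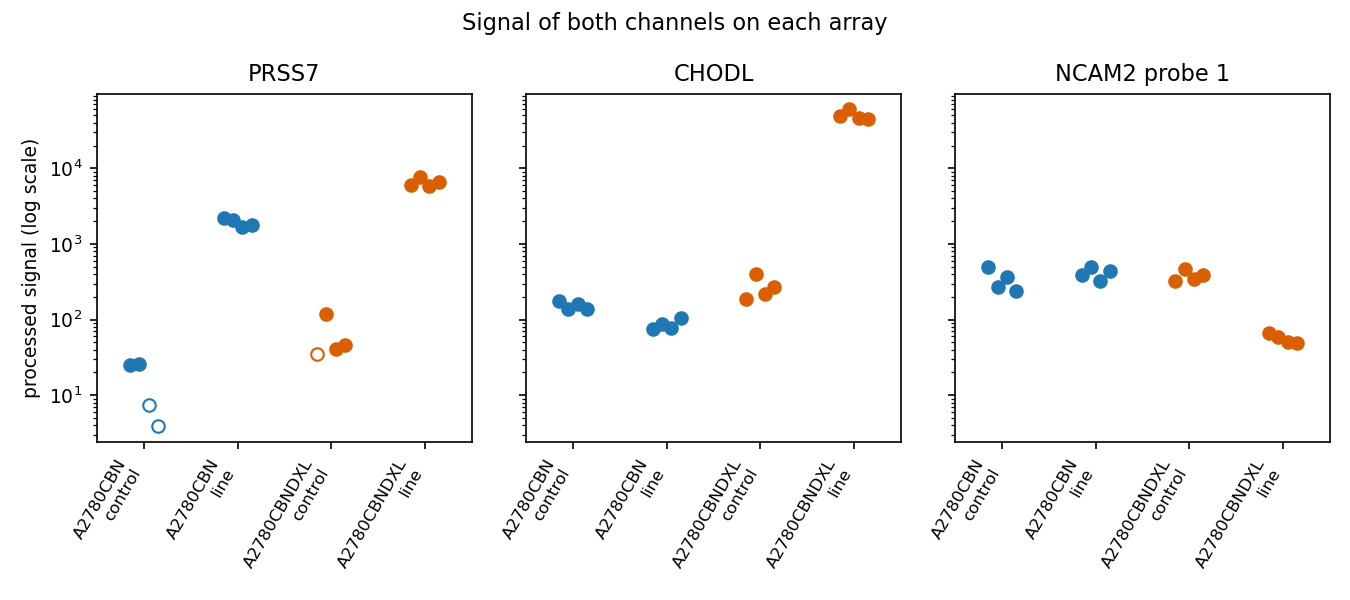
Processed signal of PRSS7, CHODL and the brighter NCAM2 probe, in arbitrary units on a log scale, in the control and line channels of the 4 arrays of each line (points side by side, arrays 1 to 4), with open circles for channels that were not well above background. PRSS7 was high in both lines, CHODL reached 44881 to 60216 in A2780CBNDXL alone, and NCAM2 was at 48.4 to 66.4 there.

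NCAM2 was lower in A2780CBNDXL. The line signal of its brighter probe, at chr21:21834015-21834074 of NCBI36, was 66.4, 58.0, 50.5 and 48.4 on arrays 1 to 4, and the control signal 327, 469, 346 and 390. The mean log2 ratio was -2.78 ± 0.34, or 6.85-fold lower, and the other NCAM2 probe gave -2.99 ± 0.73, with the line well above background on 3 of the 4 arrays. The mean was -1.07 at the brighter probe and -0.84 at the other with normexp, so that the second was then under the limit. In A2780CBN the ratios were 0.30 ± 0.65 and 0.23 ± 0.39, with signs that followed the direction of labelling.

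CXADR had 3 probes that disagreed in A2780CBNDXL. At the probe that stands for the gene, at chr21:17860528-17860587, the line signal in A2780CBNDXL was 236, 353, 246 and 227 on arrays 1 to 4 and the control signal 104, 128, 106 and 103. Its log2 ratio was 1.25 ± 0.14, whereas a probe only 328 bases before it gave -0.10 ± 0.34. The third probe, further upstream, gave 0.41 ± 0.35 with both channels well above background on 3 of 4 arrays. In A2780CBN the ratios of the 3 probes were -0.96 ± 0.62, -1.19 ± 0.23 and, with a control well above background on 1 array and a line on none, -1.08 ± 0.73. The first of these had a ratio of -1.01 without array 1 and of -1.03 without array 2, so that it then passed the limit. In A2780CBNDXL the ratio of CXADR was 0.49 with normexp and 0.52 as the mean over its probes, both under the limit.

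**Figure D2:**
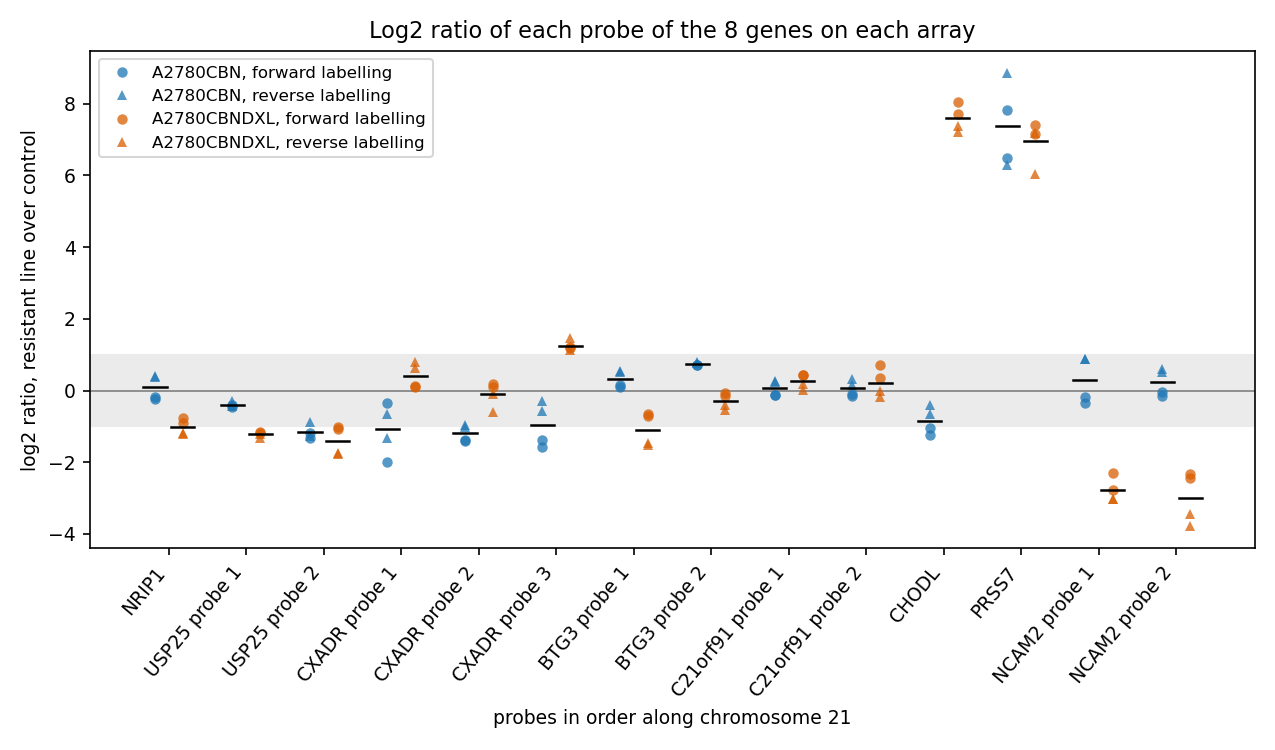
Log2 ratio of line over control for the 14 probes, in order along chromosome 21, on each array of A2780CBN and A2780CBNDXL, with circles for forward and triangles for reverse labelling, bars for the mean and grey for less than 2-fold. PRSS7 stood near 7 in both lines and CHODL in A2780CBNDXL alone, at 7.59, while most other probes lay within or near the grey band.

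NRIP1, USP25 and BTG3 were each slightly more than 2-fold lower in A2780CBNDXL. NRIP1 was at a log2 ratio of -1.01 ± 0.21 there, with -0.77, -1.17, -0.91 and -1.20 on arrays 1 to 4, and of 0.09 ± 0.34 in A2780CBN. Without array 3 the mean in A2780CBNDXL was -0.98, on the other side of the limit. USP25 had -1.22 ± 0.07 in A2780CBNDXL and -0.40 ± 0.07 in A2780CBN at its brighter probe, and the dimmer one gave -1.40 ± 0.41 and -1.17 ± 0.19. Hence USP25 was below its control on all arrays of both lines at both probes.

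BTG3 was at -1.09 ± 0.46 (log2 ratio) in A2780CBNDXL, with -0.66, -1.45, -0.71 and -1.52 on arrays 1 to 4, and at 0.33 ± 0.24 in A2780CBN. The line signal of BTG3 was 5079 to 6831 on the arrays of A2780CBNDXL and 5867 to 7074 on those of A2780CBN, ranges that overlap. The control signal was 8043 to 15804 on the arrays of A2780CBNDXL and 4753 to 6407 on those of A2780CBN, which do not. The mean over both BTG3 probes in A2780CBNDXL was -0.69. The second BTG3 probe lies on the opposite strand of the chromosome and gave 0.74 ± 0.04 in A2780CBN and -0.30 ± 0.22 in A2780CBNDXL.

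C21orf91, a gene of little described function, stayed near its control. Its probes had log2 ratios of 0.06 ± 0.22 and 0.06 ± 0.22 in A2780CBN and of 0.26 ± 0.20 and 0.22 ± 0.39 in A2780CBNDXL. It lies between BTG3 and CHODL, and its 16 channel signals at the brighter probe ranged from 402 to 657.

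A gene was counted as changed when its brightest probe had a mean change of at least 2-fold, the same sign on all 4 arrays and 1 channel well above background on all of them. All 8 genes were measured in this sense in both lines. In A2780CBN 1 gene of the group was higher, PRSS7, and 0 were lower, where 8.01% of 17947 measured genes were higher and 4.57% lower. In A2780CBNDXL 3 were higher, PRSS7, CHODL and CXADR, and 4 lower, NRIP1, USP25, BTG3 and NCAM2, where 7.72% of 17108 measured genes were higher and 9.21% lower. The CXADR probe used was the brightest only through the A2780CBNDXL line channel, at a mean of 265 against 136 at the probe 328 bases before it. In the other channels that neighbouring probe was brighter. By it CXADR was lower in A2780CBN and not changed in A2780CBNDXL. By probe 3 of 14 were changed in A2780CBN and 9 of 14 in A2780CBNDXL, against 12.1% and 16.3% of all measured probes. The median log2 ratio of the group was 0.07 in A2780CBN and -0.37 in A2780CBNDXL, with -0.06 and 0.04 over all measured genes. Since the group was selected on these ratios, nothing was read from its shares.

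The lines were also set against each other through their own channels, matched by slide and labelling direction after scaling between arrays. CHODL was 9.10 ± 0.42 (SD, n = 4 pairs of arrays) higher on the log2 scale in A2780CBNDXL than in A2780CBN, with pairs between 8.52 and 9.54. PRSS7 was 1.71 ± 0.08 higher, or 3.27-fold, with pairs between 1.61 and 1.78. Thus the lines differed in PRSS7 signal. Their ratios of processed signals were similar (7.36 and 6.94), but rested on controls that were dim on some arrays. With normexp the PRSS7 ratios were 2.90 in A2780CBN and 4.50 in A2780CBNDXL, and so were not similar. CXADR was 2.39 ± 0.39 higher, and its other probes gave 1.17 ± 0.82 and 1.38 ± 0.79. NCAM2 was 2.92 ± 0.48 lower on the log2 scale, a difference of -2.92, and NRIP1 differed by -1.33 ± 0.15. These 5 genes were those counted as changed between the lines, by the same rule over the 4 pairs. Their differences exceeded the SD over pairs, which that rule makes likely and which adds no support.

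In this comparison 3 of the 8 genes were higher in A2780CBNDXL and 2 lower, where 6.18% of 18388 measured genes were higher and 9.13% lower. At their brighter probes the USP25 line signals differed by -0.49 ± 0.11 and those of BTG3 by -0.38 ± 0.46, and neither gene passed. The other USP25 probe had the opposite sign, at 0.32 ± 0.36. At the other BTG3 probe the lines differed by -0.71 ± 0.18 and the controls by 0.33 ± 0.20. Between the controls of both lines 1 of 7 measured genes of the group was changed, BTG3, at 1.04 ± 0.38 higher beside A2780CBNDXL, against 4.36% of 18173 measured genes. The control channels of PRSS7 differed by 2.13 ± 1.14, with pairs from 0.69 to 3.43, and were not measured on all arrays. The control channels of CHODL differed by 0.67 ± 0.45 and those of NCAM2 by 0.16 ± 0.49.

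**Figure D3:**
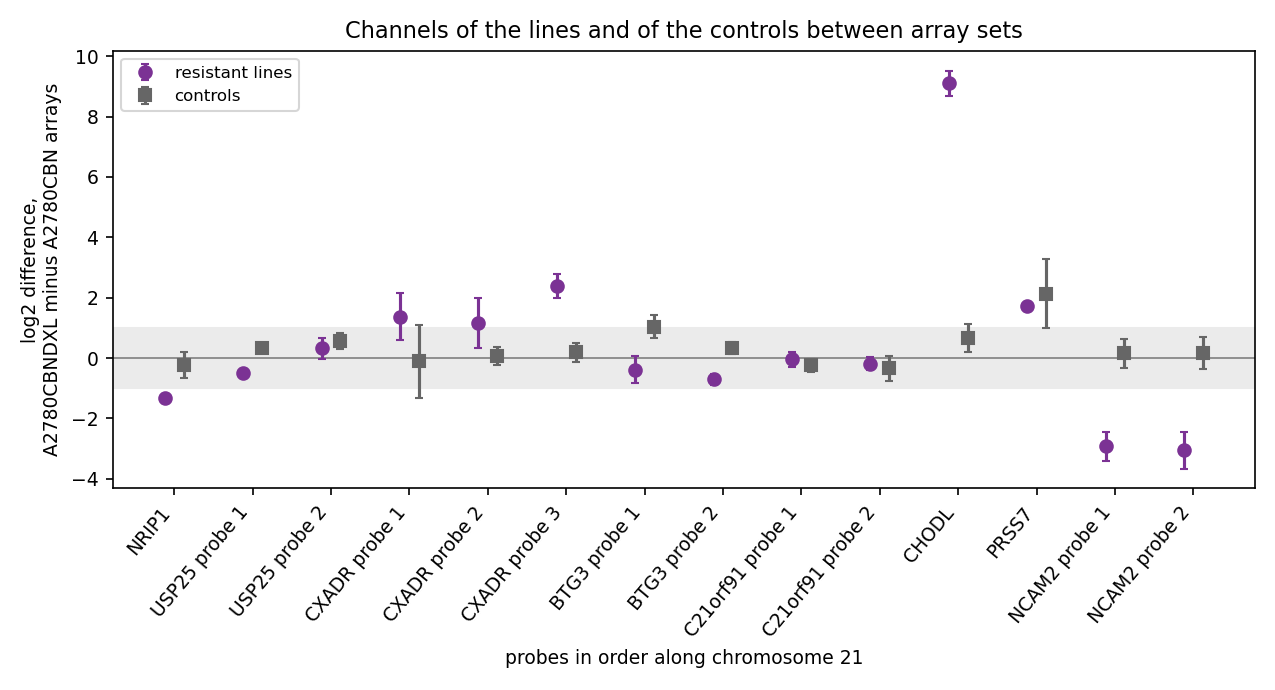
Log2 difference of the arrays of A2780CBNDXL minus those of A2780CBN for each of the 14 probes, with circles for the resistant lines, squares for the controls, error bars for the SD of 4 array pairs and grey for less than 2-fold. The CHODL line channel differed by 9.10 and its control by 0.67. At BTG3 probe 1 the controls differed by 1.04 and the lines by -0.38, and at BTG3 probe 2 by 0.33 and -0.71.

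Other genes of the same stretch were few. Between the first and the last probe of the group the arrays held 4 further named genes, of which 2 were measured, and 14 unnamed transcripts. C21orf34 was the only named one that changed, and it was lower in both lines. Its brighter probe, at chr21:16901217-16901276 between USP25 and CXADR, gave log2 ratios of -3.57 ± 0.57 (A2780CBN) and -2.73 ± 0.26 (A2780CBNDXL), with mean signals of 57.2 and 94.8 in the lines and 686 and 637 in the controls. In A2780CBN, where the line channel of its other probe was in no case well above background, that probe was lower by at least 3.43-fold. The other measured named gene, LOC100290885, had -0.36 ± 0.22 and -0.11 ± 0.12. Of the unnamed transcripts 1 was higher and 1 lower in A2780CBN, and 0 higher and 2 lower in A2780CBNDXL, of 5 and 6 measured.

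C21orf34, now MIR99AHG, is the host transcript of the 3 microRNAs listed here, whose mature forms are given from RefSeq with the seed, bases 2 to 8, in capitals. They all lie inside the host gene on the plus strand of chromosome 21, and their seeds differ from each other. The microRNAs themselves were not measured on these arrays.

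hsa-miR-99a-5p: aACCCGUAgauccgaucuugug
hsa-let-7c-5p: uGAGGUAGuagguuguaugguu
hsa-miR-125b-5p: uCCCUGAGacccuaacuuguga

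Outside the stretch, the nearest named gene on either side that was measured in both lines was not counted as changed. HSPA13, which encodes a heat shock protein, lies before NRIP1 and had 0.41 ± 0.41 in A2780CBN and -0.52 ± 0.52 in A2780CBNDXL. MRPL39, a gene of the mitochondrial ribosome beyond NCAM2, had -0.37 ± 0.11 and 0.82 ± 0.27. Nearer to NCAM2 than MRPL39 lie NCRNA00158 and C21orf71, which were measured in A2780CBNDXL alone and were higher there. NCRNA00158 was at least 3.01-fold higher, with the control not well above background on any array, and C21orf71 had a log2 ratio of 1.22 ± 0.25. Over the rest of chromosome 21, 19 of 190 measured genes were higher and 7 lower in A2780CBN, with a median log2 ratio of -0.14. In A2780CBNDXL 15 of 177 were higher and 14 lower, with a median of 0.04. The shares over all measured genes were 8.01% higher and 4.57% lower in A2780CBN, and 7.72% and 9.21% in A2780CBNDXL. In the window from 15 to 20 Mb, 6 other genes were measured, C21orf34, LOC100290885 and otherwise unnamed transcripts. Their median log2 ratio was -0.64 in A2780CBN and -0.63 in A2780CBNDXL, with 0 higher and 2 and 3 lower. The lower ones were C21orf34 and unnamed transcripts already counted above. Thus in that window no gene but PRSS7 was counted as higher in A2780CBN, and none but CHODL, PRSS7 and CXADR in A2780CBNDXL.

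**Figure D4:**
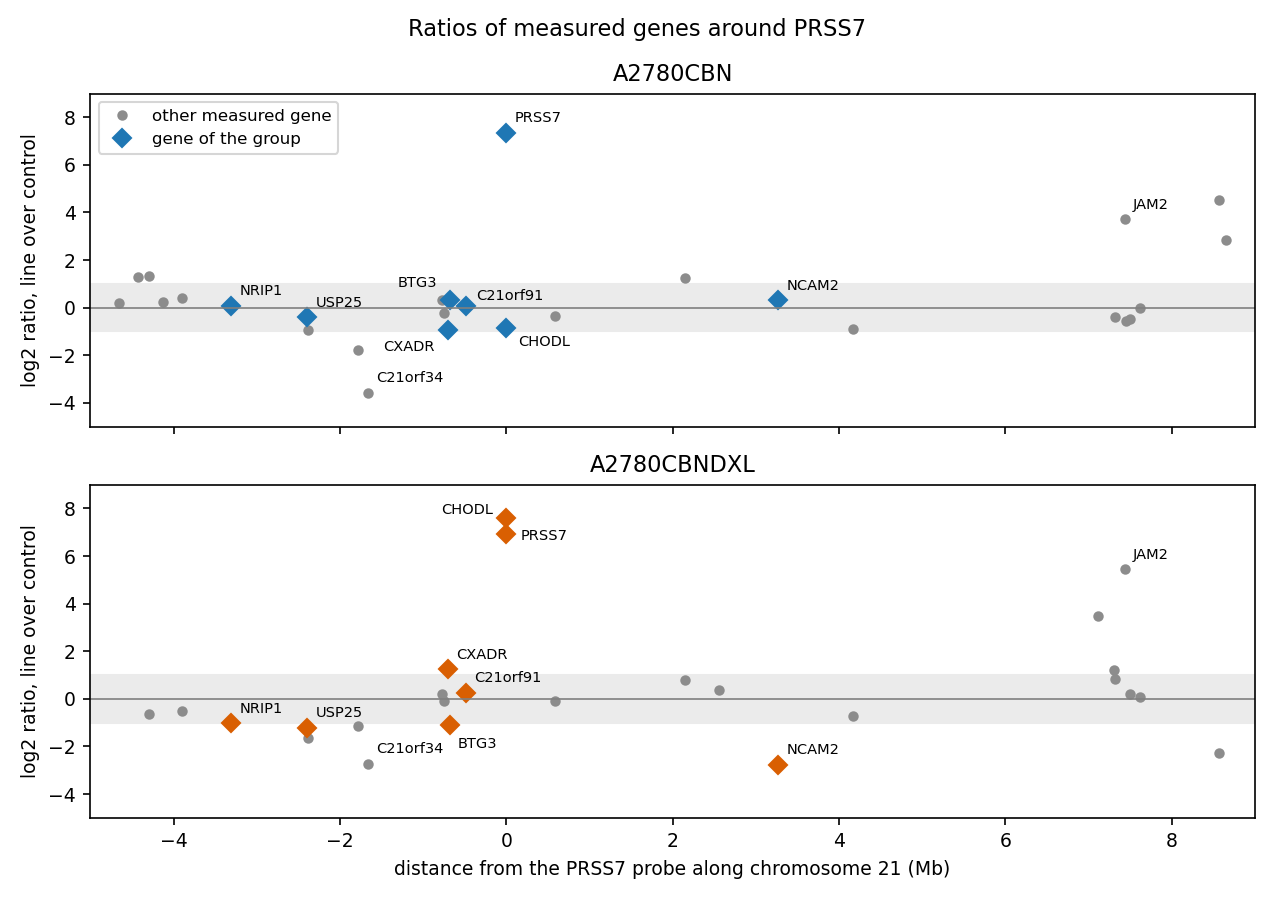
Log2 ratio of line over control of every measured gene within 5 Mb before and 9 Mb after the PRSS7 probe, against the distance from it in Mb, with diamonds for the 8 genes, grey circles for other genes and a grey band for less than 2-fold. CHODL and PRSS7 share one position and differ in A2780CBN (-0.84 and 7.36) but not in direction in A2780CBNDXL (7.59 and 6.94), and C21orf34 lies below the band in both lines.

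No other membrane-anchored serine protease on the list was counted as changed. Of 18 type II transmembrane serine proteases listed, 16 were on the arrays and 2 and 3 were measured in A2780CBN and A2780CBNDXL, with 0 changed in either. ST14, the gene of matriptase, had log2 ratios of -0.14 ± 0.28 and 0.74 ± 0.10. On the arrays of each line, 9 of the 16 had no channel well above background. Of the substrates of enteropeptidase and other pancreatic proteases, 8 of 10 were on the arrays, 2 and 3 were measured and 0 changed. The trypsinogen gene PRSS1 was well above background on no array of A2780CBN and in the line channel of 1 array of A2780CBNDXL. PRSS2, another trypsinogen gene, was well above background in both channels of all arrays and had -0.30 ± 0.20 and 0.18 ± 0.17.

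The other markers of the intestinal epithelium were low in both lines. Of the 6 genes VIL1, CDX2, CDX1, FABP2, SI and ALPI, 1 was well above background in the line channel on all arrays of A2780CBN and 0 on all arrays of A2780CBNDXL. That gene was CDX2, an intestinal homeobox factor, which was lower in both lines, at -1.92 ± 0.13 in A2780CBN and at least 8.29-fold lower in A2780CBNDXL. FABP2 was well above background on no array and sucrase-isomaltase, SI, in 1 line channel of A2780CBNDXL. The summed signal of the 6 genes was 112 in A2780CBN and 208 in A2780CBNDXL, with 216 and 286 in the controls. SI carried much of the sum in A2780CBNDXL through 1 array, with line signals from 4.82 to 407. Without SI the other 5 genes summed to 106 and 102 in the lines and to 211 and 281 in the controls. Most of these control sums was CDX2, with mean signals of 126 and 204 in the controls against 33.0 and 15.5 in the lines. Among the epithelial markers KRT8, KRT18, KRT19, EPCAM and PAX8 all 5 were measured in A2780CBN and 4 in A2780CBNDXL, and KRT18 and EPCAM were higher in the first line and EPCAM in the second. The 3 endothelial markers summed to 35.5 to 45.2 in a channel, and PTPRC of leukocytes and PECAM1 of endothelium were well above background on no array.

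Relatives of the genes were followed in a list of 14, which held lectin and adhesion genes, the BTG/TOB family and USP28. Of 11 measured in A2780CBN 5 were higher, BTG1, BTG2, ASAM, F11R and JAM2, and 1 was lower, LAYN. Of 10 measured in A2780CBNDXL 3 were higher, BTG2, ASAM and JAM2, and 1 was lower, again LAYN. Over all measured genes 8.01% were higher and 4.57% lower in A2780CBN, and 7.72% and 9.21% in A2780CBNDXL. The list was drawn up with earlier results of these data known, so nothing was read from its counts. LAYN, the gene of layilin and a C-type lectin relative of CHODL, had log2 ratios of -7.27 ± 0.30 and -7.19 ± 0.44. In A2780CBNDXL the 2 lectin genes thus lay at opposite ends, CHODL at 7.59 and LAYN at -7.19, whereas in A2780CBN both were below the control. JAM2, a relative of CXADR that also lies on chromosome 21, had 3.71 ± 0.17 and 5.45 ± 0.25. ASAM, another CXADR relative, was at least 2.34-fold higher in A2780CBN and at least 52.6-fold higher in A2780CBNDXL, with the control not well above background on any array. F11R had 2.05 ± 0.78 in A2780CBN and 0.26 ± 0.15 in A2780CBNDXL.

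Of the relatives of BTG3, BTG1 had log2 ratios of 1.70 ± 0.08 in A2780CBN and -0.41 ± 0.12 in A2780CBNDXL, and BTG2 had 1.57 ± 0.13 and 1.16 ± 0.24. The median log2 ratio of the measured relatives was 0.93 in A2780CBN and 0.19 in A2780CBNDXL, with -0.06 and 0.04 over all measured genes. For NRIP1, none of the 14 estrogen receptor genes, coregulators and targets on the list changed in either line, 10 and 9 of which were measured, with median log2 ratios of 0.04 and 0.24. ESR1, the gene of estrogen receptor alpha, had -0.36 ± 0.25 in A2780CBN and 0.24 ± 0.16 in A2780CBNDXL. In bulk RNA a change in the share of cells that express a gene and a change per cell cannot be told apart.

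The named genes most like PRSS7 and CHODL over the 16 channels were found by Pearson's r of log2 signals among 11570 other genes well above background in the line channel of all arrays. The channels come from 4 RNA pools, so r is a description with no p. TMEM98 (r = 0.98), NDRG1 (0.98), TP53INP1 (0.98), LRRK2 (0.98) and IFI27L2 (0.98) were most like PRSS7, with log2 ratios of 1.87 to 3.80 in A2780CBN and of 2.06 to 3.31 in A2780CBNDXL. PRKCDBP, C9orf150, DLG2, STK17A and FRZB were most like CHODL, with r from 0.988 to 0.992. Their log2 ratios were 2.04 to 4.20 in A2780CBNDXL and -1.15 to 0.03 in A2780CBN, and none of the 10 genes lies on chromosome 21.

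The arrays held 43376 spots each besides controls, and a channel had 59.8 to 67.5% of them well above background and 0 saturated. Array 1 of A2780CBNDXL stood apart in its spike-in controls, which varied by 29.0% and 32.7% in the green and red channels against 8.31 to 12.2% on the other arrays. Without it the 7 genes counted as changed in A2780CBNDXL were still 3 higher and 4 lower.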

How the data were processed

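Gene expression of A2780CBN and A2780CBNDXL against A2780CC controls was measured on 8 arrays of an Agilent whole human genome design with probe coordinates on NCBI36. The authors deposited the output of Agilent Feature Extraction, run in version 10.7.1.1 (slide 1) or 10.7.3.1 (slide 2), and Partek is also named in the submitters' processing notes. The deposited processed intensity of each channel was background-subtracted and dye-normalized within the array by the authors' software, which sets a surrogate value near the background. The deposited flags mark spots that are outliers or well above background, and raw mean, background and background-subtracted intensities served for alternatives.

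Outlier spots were left out and spots of a probe averaged. The direction of the ratios was taken from the forward arrays (control Cy3, line Cy5). The dye entries of the reverse arrays conflict with their name, and they were turned over as named, after which forward and reverse arrays correlated at r = 0.58 to 0.74 over all probes, and arrays of one direction at 0.85 to 0.90. The log2 ratio of line over control was averaged within each direction and then over both, and the brightest probe stood for a gene. Channels were compared between arrays after Aquantile scaling, and a fold against a channel not well above background on any array is a lower bound, taken from the lowest signal well above background. The number of arrays limits the precision. Each line is 1 sample, so no test across samples was run, and limma was an alternative only. The genes and the lists of relatives, proteases, receptor genes and markers were chosen with earlier results of these data known. Named are all genes of the group, changed genes of the stretch and of the lists, flanking genes, and the 5 genes most like PRSS7 and CHODL, with accession-like names passed over. ST14, PRSS1, PRSS2, ESR1, LOC100290885, FABP2, SI, PTPRC, PECAM1, NCRNA00158 and C21orf71 were named in addition, after their values were seen. Gene names are those of the files. One marker result is not reported here. RefSeq tables on GRCh38.p14 gave current names and the sequences of promoters, for 7 of the 8 genes, and microRNAs. Steps were tested on simulated arrays. Arrays were read with Python 3.11.15, pandas 2.3.3 and numpy 2.4.6, figures drawn with matplotlib 3.10.9, and limma 3.58.1 was run in R 4.3.3.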

Additional observations from a re-analysis of the deposited data

Results flagged for a closer look

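At the probes that stand for CHODL, CXADR and BTG3 every array of one line moved one way against its control and every array of the other line the opposite way. A CXADR probe 328 bases before the brightest one had both signs on the arrays of A2780CBNDXL, with a mean of -0.10. The log2 ratio in A2780CBNDXL minus that in A2780CBN was 8.43 for CHODL, 2.21 for the brightest probe of CXADR and -1.42 for the brighter probe of BTG3. For CHODL and CXADR the line channels differed by 9.10 and 2.39 and the control channels by 0.67 and 0.19. For the brighter probe of BTG3 the control channels differed by 1.04 and the line channels by -0.38. Its other probe went the other way, with 0.33 between the controls and -0.71 between the lines. Each line is 1 sample, so the difference between the lines was not tested across cultures. No array stood out by Dixon's criterion at the measured probes of the 8 genes.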

How the results depend on the processing

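No paired analysis was possible because each line is 1 sample and the arrays of a line repeat it. In the line where a gene was counted as changed, the ratio of the probe that stands for it kept its sign under every alternative run. For alternatives that only leave out arrays this was fixed in advance, since the rule asks for the same sign on all 4 arrays. Of 318 recomputed ratios of the 14 probes 297 moved by less than 1 SD over arrays and 21 by more. Most of them, with an array left out or from 1 slide or 1 labelling direction, reuse the same 4 arrays. Such ratios could not move by 1 SD, so these counts are no measure of stability. With normexp and loess the log2 ratio of CHODL was -0.27 in A2780CBN and 6.67 in A2780CBNDXL, that of PRSS7 2.90 and 4.50, and 1 and 5 probes were changed in the lines. The line signals of PRSS7 differed by 1.62 after scaling to the 75th percentile. In A2780CBN 1 to 2 genes were changed with an array left out in turn, CXADR being the second without array 1 or 2. There 2 genes were changed on slide 2 alone, 3 genes and 5 probes on the forward arrays, and 3 genes and 6 probes with a limit of 1.5-fold. With a 3-fold limit 1 probe was changed in A2780CBN, and 3 genes and 4 probes in A2780CBNDXL. With both channels required above background 0 genes were changed in A2780CBN at 2-fold, since the PRSS7 control was dim on 2 arrays. In A2780CBNDXL 6 to 7 genes were changed with an array left out, 5 on the forward arrays, where NRIP1 and BTG3 were at -0.84 and -0.69, 5 with normexp, and 6 with both channels above background, where PRSS7 was not counted. Limma with 2-fold, with or without slide as a block, kept the counts of 1 and 7 genes, and outlier spots kept, median centring and no filter on dim probes also gave 1 and 7. C21orf34 was counted as lower in both lines under each of these settings. Dim channels limit the folds of PRSS7, NCAM2 and CXADR.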
